A study of Mus musculus with 6 samples.

Results

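The 52 genes described here were a list of cell cycle and mitosis genes, matched by mouse symbol among the 43346 Ensembl genes of the deposited tables. All 52 were found, and 49 of them passed the filter on low counts that left 15747 genes for testing. Levels were measured by RNA-seq of cultured mouse retinal ganglion cells (RGCs), the neurons whose axons form the optic nerve. RGCs were purified by immunopanning on CD90.1 (the surface antigen encoded by Thy1), plated at 250000 cells per well and given an AAV at about 100000 vector genomes per cell. There were 3 groups of 2 replicate libraries, namely a control AAV that encoded EGFP, an AAV that encoded Sox11 together with EGFP, and one that encoded Sox11K91A together with EGFP, in which alanine replaces the lysine at residue 91 that carries SUMO. RGCs of all groups were cultured with forskolin, BDNF at 50 ng/ml and CNTF at 10 ng/ml, and RNA was taken 72 h after plating. The age of the RGCs is given as embryonic day 18 in the sequencing protocol and postnatal day 2 in the culture protocol, and postnatal day 0 stands in the table names. The study used C57BL/6 mice of both sexes. Its methods plate the cells in quadruplicate wells and describe 3 RNA samples, each taken into libraries in duplicate, and do not say whether a pair of libraries came from separate cultures or from the same RNA. All p-values therefore measure only the spread between these libraries, which may be technical. The promoter of the vectors is not given in the sources used here.

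Dividing cells pass from growth to DNA synthesis when D-type cyclins with Cdk4 or Cdk6, and then E-type cyclins with Cdk2, phosphorylate the retinoblastoma protein and release E2F factors. E2F factors switch on genes for replication licensing and nucleotide synthesis, and A- and B-type cyclins with Cdk1 then drive entry into mitosis. RGCs leave the cycle early in retinal development and are postmitotic neurons, in which CDK inhibitors and several cyclins nonetheless remain transcribed.

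The 52 genes spanned a wide range of expression in these cultures (see the plot of TPM by role). On the TPM scale, which corrects for gene length, the highest levels were those of Cdk4, from 124 to 351 TPM over the 6 libraries, and Cdkn2d, from 75.4 to 185 TPM. Mki67, the gene of the proliferation antigen Ki-67, lay between 0.05 and 0.20 TPM, at percentile 0.165 of the 15747 genes tested by mean TPM, against percentile 95.6 for Cdk4. Of the 17 genes of mitotic chromosomes, spindle and checkpoint, 8 averaged under 1 CPM (counts scaled to library size), as did 2 of the 4 genes of A- and B-type cyclins and Cdk1. Below 1 CPM in every library were 10 of the 52 genes, which were Cdkn2c, E2f2, Mcm3, Cdc6, Ccnb1, Cdk1, Top2a, Aurkb, Bub1 and Ube2c. In bulk RNA a low level in all cells and a higher level in few cells cannot be told apart.

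**Figure D1:**
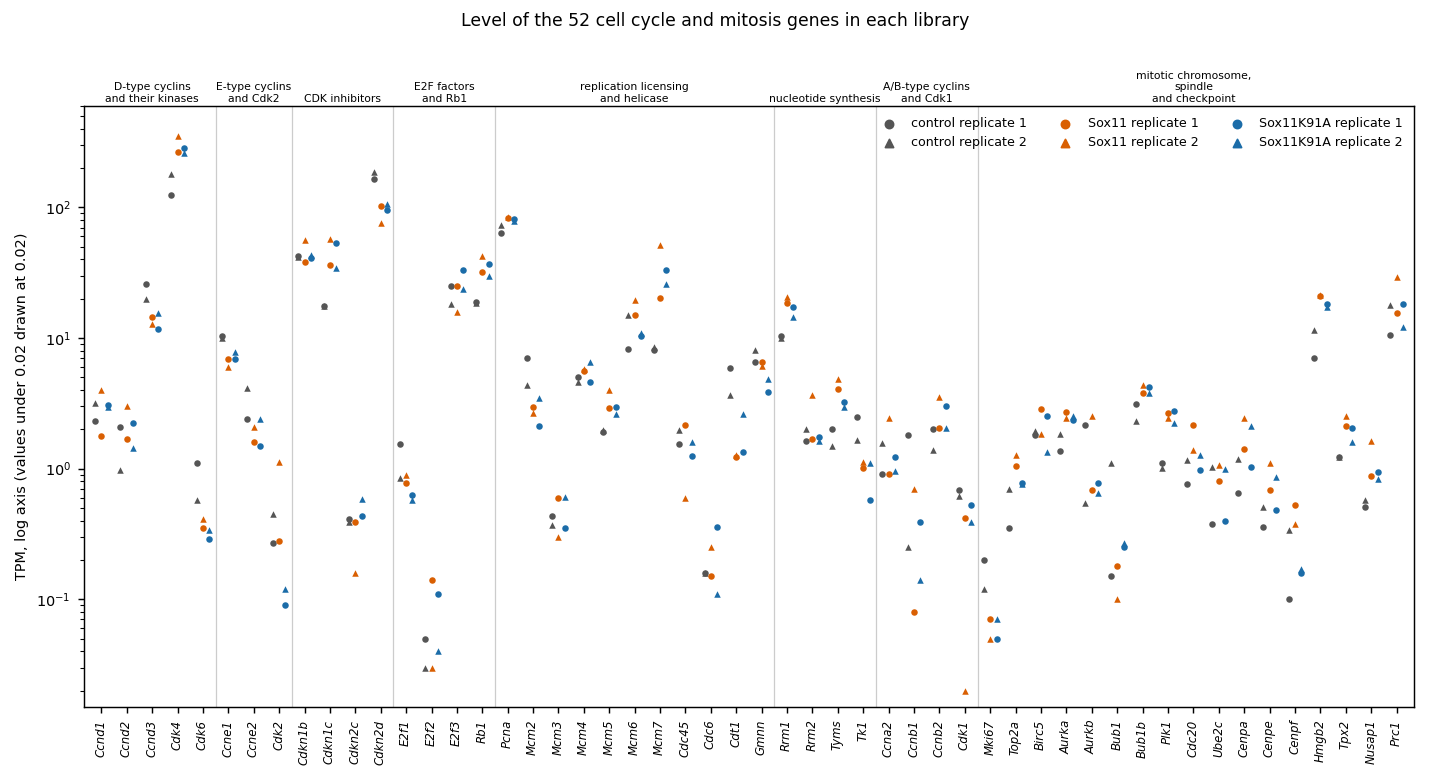
TPM (log axis) of the 52 cell cycle and mitosis genes in each of the 6 libraries, grouped by role, with circles for replicate 1 and triangles for replicate 2. Cdk4, Cdkn2d and Pcna stand highest, and Mki67, E2f2 and Cdc6 are among the lowest in all groups.

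Library totals lay between 27521981 and 37061718 expected counts. Sox11 itself measured 234 and 332 CPM in the control libraries, 9180 and 14600 CPM with Sox11, and 12000 and 7030 CPM with Sox11K91A, so each library matched its label as to whether a Sox11 transgene was present. Replicate 2 of the control group and replicate 2 of the Sox11 group stood apart from the rest on the second principal component, and had lower Xist levels (95.9 and 254 CPM) than the other 4 libraries (400 to 526 CPM). These 2 libraries held the 2 highest values of 7 of the 52 genes, among them Mcm6 and Prc1, and of 7.86% of all genes tested. Calls that changed when these libraries were left out, or when the fit held a term for them (the low-Xist block), are given with the genes. Low-Xist libraries were defined as those under 50% of the highest Xist level (526 CPM).

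With Sox11, 9 of the 49 genes tested passed the threshold of an FDR under 0.05 and a fold change above 1.2 (limma-voom), beside 20.1% of all genes tested. Higher were Mcm7, Cdkn1c, Hmgb2, Cdk4, Rb1 and Rrm1, and lower were Cdt1, Cdkn2d and Ccnd3. With Sox11K91A, 6 of 49 passed, beside 10.6% of all genes tested. These were Mcm7, Cdkn1c, Cdk4 and Rb1, which were higher, and Cdkn2d and Ccnd3, which were lower. By direction, 9.96% of all genes were called higher and 10.2% lower with Sox11, and 5.81% higher and 4.81% lower with Sox11K91A. The share of the cell cycle genes called, 18.4% with Sox11 and 12.2% with Sox11K91A, was near the share of all genes in both comparisons. Both comparisons use the same control libraries, so the second is no independent repeat of the first.

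The median log2 fold change of the 49 genes was 0.27 with Sox11 and 0.11 with Sox11K91A, beside 0.01 and 0.02 over all genes tested. Of all 52 genes, 20 were higher in both Sox11 libraries than in both controls and 11 were lower in both, while 30.9% and 30.6% of all genes tested did so. With Sox11K91A 19 were higher and 15 were lower in both libraries, beside 31.2% and 30.7% of all genes. Such a separation was common among all genes, and where it is given below for a single gene it only describes the values. Members of a single step of the cycle often lay on opposite sides of 0 (see the plot of log2 fold changes).

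**Figure D2:**
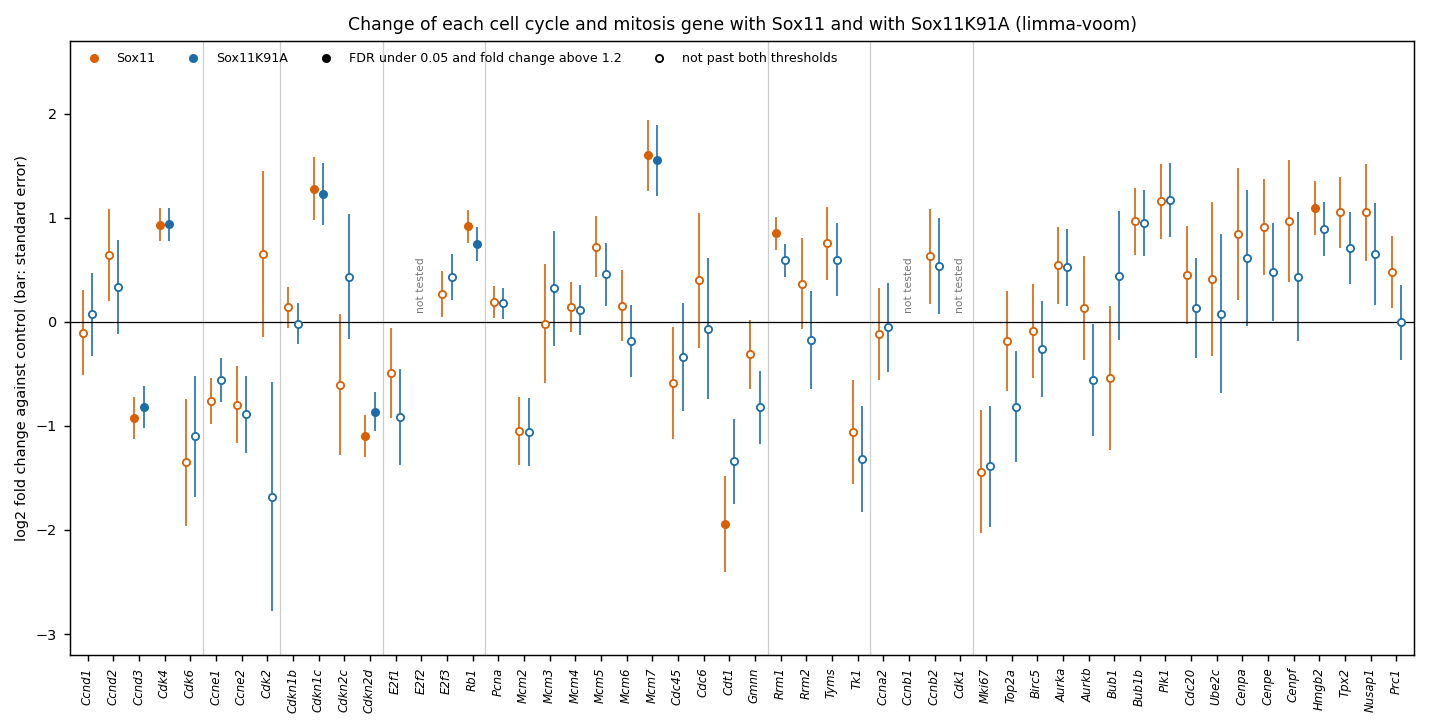
Log2 fold change against control of each cell cycle and mitosis gene with Sox11 (orange) and with Sox11K91A (blue) from limma-voom, in the order of roles used for the plot of levels. Bars are standard errors and filled points passed the threshold, 9 with Sox11 and 6 with Sox11K91A, and Ccnb1, Cdk1 and E2f2 were not tested.

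These calls depended on single libraries. Without replicate 2 of the Sox11 group no gene of the whole table passed against control, and the 9 calls had adjusted p between 0.11 and 0.18 (limma-voom). Calls of Cdk4, Rb1, Rrm1 and Cdkn2d held when any other single library was left out. Mcm7 and Cdkn1c also lost their Sox11 call without control replicate 1 (adjusted p = 0.062 and 0.075) and without control replicate 2 (0.069 and 0.092). Ccnd3, Cdt1 and Hmgb2 lost it without Sox11 replicate 1 (0.063, 0.072 and 0.07), Cdt1 also without control replicate 1 (0.055), and Hmgb2 without Sox11K91A replicate 1 or 2 (0.057 and 0.06). For Sox11K91A, none of the 49 genes was called without Sox11K91A replicate 1, Sox11K91A replicate 2 or control replicate 2, at which 6, 12 and 15 cell cycle genes had an unadjusted p under 0.05. Without control replicate 1, the calls of Mcm7 (0.081), Cdkn1c (0.098) and Ccnd3 (0.066) were also lost, and that of Ccnd3 was lost without Sox11 replicate 1 or 2 (0.065 and 0.067). With both low-Xist libraries left out, 6 of the 9 calls remained with Sox11, and Cdkn1c (adjusted p = 0.11), Ccnd3 (0.059) and Cdt1 (0.057) were lost. With Sox11K91A the calls of Cdk6 (adjusted p = 0.037), Cdt1 (0.033), Hmgb2 (0.011), Mcm2 (0.027) and Rrm1 (0.044) were gained, which made 11. Under the low-Xist block, Ccne1 (0.04) and Mcm2 (0.036) were gained with Sox11, and Cdt1, Hmgb2, Mcm2 and Rrm1 with Sox11K91A (0.04 to 0.05), and no call was lost.

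Among the D-type cyclins and their kinases, Cdk4 was higher and Ccnd3 lower with both viruses, and Ccnd1, Ccnd2 and Cdk6 did not pass the threshold. Cdk4, the catalytic partner of the D-type cyclins, measured 73.8 and 90.8 CPM in the control libraries, 145 and 168 CPM with Sox11, and 161 and 152 CPM with Sox11K91A. Every library with a Sox11 virus lay above both controls, and the ranges of the viruses overlapped each other. The log2 fold change of Cdk4 was 0.93 ± 0.16 (SE) with Sox11 (1.91-fold, adjusted p = 0.016, limma-voom) and 0.94 ± 0.16 with Sox11K91A (1.91-fold, adjusted p = 0.023). Annotated exons of Tspan31, on the opposite strand, cover 19.7% of the exon bases of Cdk4, and since the use of strand in counting is not stated, reads there cannot be assigned with certainty. Tspan31 moved the other way, with means of 68.4 CPM in controls, 40.4 CPM with Sox11 and 46.0 CPM with Sox11K91A.

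Ccnd3, one of the 3 D-type cyclins, measured 21.9 and 19.9 CPM in controls, 10.9 and 11.0 CPM with Sox11, and 10.2 and 13.8 CPM with Sox11K91A. The control libraries were thus the highest for this gene. Its log2 fold change was -0.93 ± 0.20 (SE) with Sox11 (1.90-fold lower, adjusted p = 0.026, limma-voom) and -0.82 ± 0.20 with Sox11K91A (1.76-fold lower, adjusted p = 0.047). Bysl shares 4.11% of the exon bases of Ccnd3 on the opposite strand. Mean levels of Bysl were also lower, at 61.1 CPM in controls, 44.7 CPM with Sox11 and 47.6 CPM with Sox11K91A. Ccnd1, a sister of Ccnd3, measured 4.19 and 6.20 CPM in controls, 3.17 and 7.03 CPM with Sox11, and 5.55 and 5.38 CPM with Sox11K91A. LTO1, at a mean of 36.4 CPM, shares 23.4% of the exon bases of Ccnd1 on the opposite strand. For Ccnd1 the Sox11 replicates lay on either side of all other libraries, and the 95% interval of the log2 fold change ran from -1.08 to 0.87. Ccnd2 measured 5.80 and 2.98 CPM in controls, 4.66 and 8.14 CPM with Sox11, and 6.24 and 4.05 CPM with Sox11K91A, also with overlapping groups. Its log2 fold change was 0.64 ± 0.44 (SE) with Sox11 (adjusted p = 0.33, limma-voom) and 0.33 ± 0.45 with Sox11K91A (adjusted p = 0.67). Cdk6, the alternative partner of the D-type cyclins, was lower in all 4 libraries with a Sox11 virus (0.437 to 0.617 CPM) than in the controls (0.856 and 1.97 CPM), but did not pass the threshold (adjusted p = 0.15 and 0.25). Without the low-Xist libraries it was called with Sox11K91A (log2 fold change -1.76, adjusted p = 0.037, limma-voom).

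The E-type cyclins, which act with Cdk2 at the start of DNA synthesis, were lower in every library with a Sox11 virus than in both controls, without being called. Of all genes tested, 30.6% were lower in both Sox11 libraries than in both controls, and 30.7% in both Sox11K91A libraries. Ccne1 measured 9.30 and 9.83 CPM in controls, 6.19 and 5.25 CPM with Sox11, and 6.27 and 6.76 CPM with Sox11K91A. Its log2 fold change of -0.76 ± 0.22 (SE) with Sox11 lay just outside the threshold (adjusted p = 0.052, limma-voom) and passed under the low-Xist block (0.04), and that of -0.56 ± 0.21 with Sox11K91A did not pass (adjusted p = 0.13). Ccne2 went from 3.29 and 5.40 CPM to between 2.08 and 2.78 CPM, with adjusted p of 0.16 in both comparisons (limma-voom). Ints8, at a mean of 39.4 CPM, shares 17.4% of the exon bases of Ccne2 on the opposite strand. Cdk2 reached at most 1.24 CPM in any library, and none of the 3 genes of this step was called.

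Of the 4 CDK inhibitors, Cdkn1c was higher and Cdkn2d lower with both viruses, and Cdkn1b and Cdkn2c did not pass the threshold. Cdkn1c, an imprinted gene whose product binds and blocks several cyclin-CDK complexes, measured 14.9 and 16.4 CPM in controls, 30.5 and 47.2 CPM with Sox11, and 45.4 and 29.7 CPM with Sox11K91A. All 4 libraries with a Sox11 virus lay above both controls, with a wide gap between the replicates of each virus. On the log2 scale the change was 1.28 ± 0.30 (SE) with Sox11 (2.43-fold, adjusted p = 0.030, limma-voom) and 1.23 ± 0.30 with Sox11K91A (2.34-fold, adjusted p = 0.048). An unnamed gene model on the opposite strand, Gm44732, covers 30.7% of its exon bases.

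Cdkn2d, a member of the INK4 family that blocks Cdk4 and Cdk6, measured 88.5 and 107 CPM in controls, 53.5 and 38.9 CPM with Sox11, and 50.6 and 56.7 CPM with Sox11K91A. Both controls lay above all other libraries. Its log2 fold change was -1.10 ± 0.20 (SE) with Sox11 (2.14-fold lower, adjusted p = 0.017, limma-voom) and -0.86 ± 0.19 with Sox11K91A (1.82-fold lower, adjusted p = 0.039). Cdkn2c, another INK4 inhibitor, was at or under 0.686 CPM in all libraries, with values of 0.358 and 0.493 CPM in controls, 0.437 and 0.181 CPM with Sox11, and 0.497 and 0.686 CPM with Sox11K91A. Cdkn1b, which keeps many differentiated cells out of the cycle, measured 55.4 and 58.7 CPM in controls, 51.4 and 76.4 CPM with Sox11, and 55.5 and 57.3 CPM with Sox11K91A, so that only replicate 2 of the Sox11 group stood above the rest. The 95% interval of its log2 fold change ran from -0.33 to 0.61 with Sox11 and from -0.49 to 0.46 with Sox11K91A. On the scale of TPM, Cdkn2d and Cdkn1b were among the higher genes of the list in every group, and Cdkn1c joined them with either Sox11 virus (means of 17.5 TPM in controls, 46.6 TPM with Sox11 and 43.7 TPM with Sox11K91A).

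**Figure D3:**
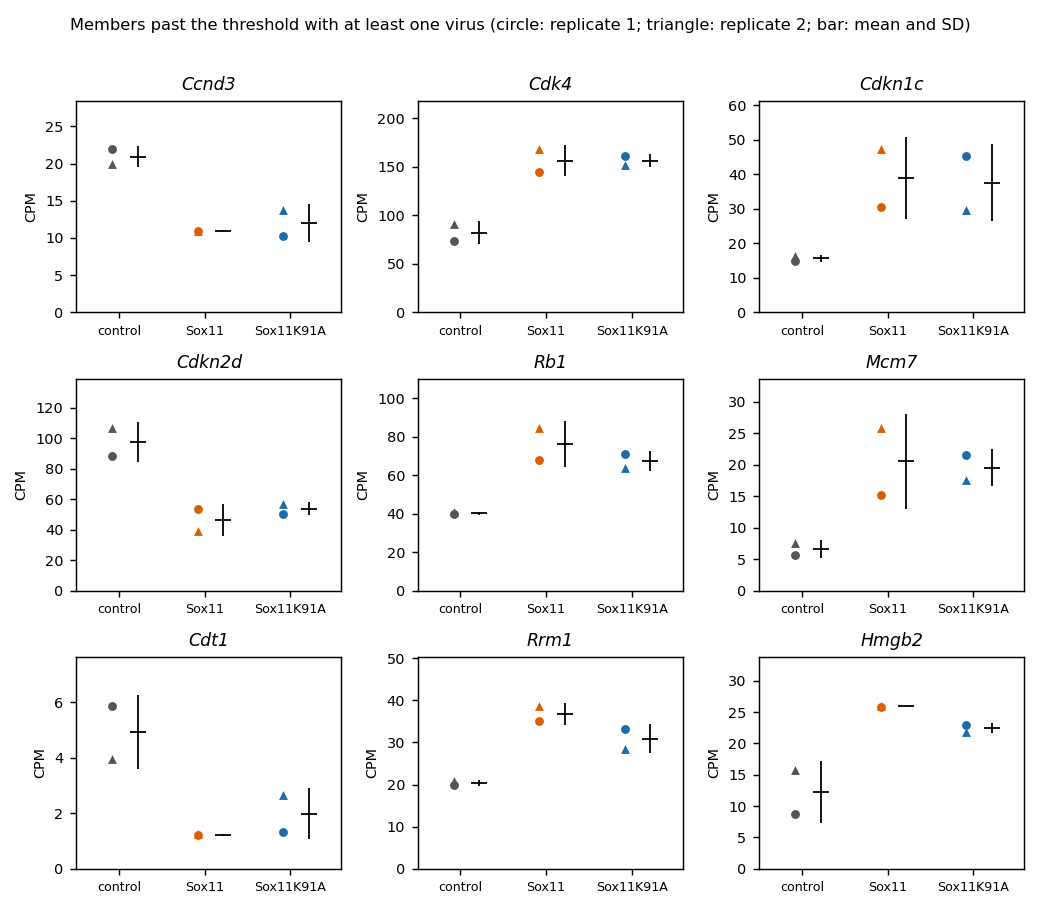
CPM in each library of the 9 cell cycle genes past the threshold with at least one virus, with circles for replicate 1, triangles for replicate 2, and the mean and SD of each pair beside them. Cdk4, Cdkn1c, Rb1, Mcm7, Rrm1 and Hmgb2 are higher, and Ccnd3, Cdkn2d and Cdt1 lower, in all 4 libraries with a Sox11 virus than in both controls.

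Rb1, the retinoblastoma gene, was higher with both viruses while the E2F genes did not pass the threshold. Rb1 measured 39.6 and 40.8 CPM in controls, 67.9 and 84.8 CPM with Sox11, and 71.1 and 63.9 CPM with Sox11K91A. The controls lay close together and well below the other libraries. This was a log2 fold change of 0.92 ± 0.16 (SE) with Sox11 (1.89-fold, adjusted p = 0.016, limma-voom) and 0.75 ± 0.16 with Sox11K91A (1.68-fold, adjusted p = 0.035). Lpar6 and Rcbtb2 share 6.78% and 8.11% of the exon bases of Rb1 on the opposite strand. Their mean levels were also above those of controls, for Lpar6 at 3.61 CPM in controls, 21.2 CPM with Sox11 and 16.9 CPM with Sox11K91A, and for Rcbtb2 at 36.5, 58.8 and 55.6 CPM. E2f1, an activator of replication genes, was at or under 1.97 CPM in every library and E2f2 at or under 0.328 CPM. E2f3 measured between 26.5 and 47.1 CPM in all groups and did not pass (adjusted p = 0.41 and 0.24).

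Among the 11 genes of replication licensing, the step that loads the MCM helicase at origins, Mcm7 was higher with both viruses and Cdt1 was lower with Sox11. Mcm7, one of the 6 subunits of the MCM2-7 ring, measured 5.65 and 7.58 CPM in controls, 15.2 and 25.9 CPM with Sox11, and 21.6 and 17.5 CPM with Sox11K91A. Each library with a Sox11 virus was above both controls. The log2 fold change of 1.6 ± 0.34 (SE) with Sox11 (3.02-fold, adjusted p = 0.024, limma-voom) was the largest rise among the 49 genes, and that with Sox11K91A was 1.55 ± 0.34 (2.92-fold, adjusted p = 0.037). On the opposite strand, Ap4m1 and Cops6 share 7.25% and 1.45% of the exon bases of Mcm7. Mean levels in controls, with Sox11 and with Sox11K91A were 11.2, 13.5 and 15.8 CPM for Ap4m1 and 124, 84.3 and 90.4 CPM for Cops6. None of the other 5 subunits of the ring was called, and their difference from Mcm7 was not tested. Mcm2 measured 11.2 and 7.63 CPM in controls, 4.66 and 4.13 CPM with Sox11, and 3.38 and 5.62 CPM with Sox11K91A. It was lower than both controls in all 4 libraries without passing the threshold (log2 fold change -1.05 ± 0.33 and -1.06 ± 0.33 (SE), adjusted p = 0.066 and 0.084, limma-voom), though it was called in both comparisons under the low-Xist block (0.036 and 0.04) and by DESeq2. Mcm5 lay above both controls (3.11 and 3.53 CPM) in all libraries with a Sox11 virus (4.32 to 6.40 CPM), with a log2 fold change of 0.72 with Sox11 (95% interval from 0.04 to 1.41). Log2 fold changes of Mcm3, Mcm4, Mcm5 and Mcm6 lay between -0.02 and 0.72 with Sox11 and between -0.18 and 0.46 with Sox11K91A, and none was called.

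Cdt1, which brings the MCM ring to origins, measured 5.87 and 3.97 CPM in controls, 1.2 and 1.24 CPM with Sox11, and 1.33 and 2.64 CPM with Sox11K91A. Both controls were above all other libraries. The log2 fold change was -1.94 ± 0.46 (SE) with Sox11 (3.83-fold lower, adjusted p = 0.031, limma-voom), the largest fall among the 49 genes, and -1.34 ± 0.41 with Sox11K91A (2.53-fold lower, adjusted p = 0.079), which passed only with the low-Xist libraries left out (0.033) or blocked, or by DESeq2. Whether the fall of Cdt1 differs between the viruses was tested in the comparison of Sox11K91A with Sox11, where it was not called (log2 difference 0.60, 95% interval from -0.61 to 1.81). Gmnn, the inhibitor of Cdt1, lay between 1.46 and 3.29 CPM in all libraries and was not called. Pcna, the sliding clamp of DNA polymerases that also serves in DNA repair, measured 42.0 and 51.8 CPM in controls, 53.5 and 53.3 CPM with Sox11, and 53.6 and 52.2 CPM with Sox11K91A. The libraries with a Sox11 virus lay barely above the higher control, and the 95% interval of the log2 fold change ran from -0.16 to 0.54 with Sox11 and from -0.18 to 0.53 with Sox11K91A. Cdc6, an origin loading factor, and Cdc45, part of the active helicase, were at or under 0.392 and 1.56 CPM and were not called.

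In nucleotide synthesis, Rrm1, the large subunit of ribonucleotide reductase, was higher with Sox11. It measured 19.9 and 20.9 CPM in controls, 35.0 and 38.7 CPM with Sox11, and 33.3 and 28.4 CPM with Sox11K91A. The 3 groups did not overlap, with Sox11 highest and the controls lowest. Its log2 fold change was 0.85 ± 0.16 (SE) with Sox11 (1.80-fold, adjusted p = 0.019, limma-voom) and 0.59 ± 0.16 with Sox11K91A (1.51-fold, adjusted p = 0.062; 0.044 without the low-Xist libraries), and the difference between the viruses was not called. Rrm2, the small subunit whose level follows S phase, measured 1.65 to 3.56 CPM over all libraries, with overlapping groups. Tyms (thymidylate synthase) was above both controls in all 4 libraries, at 1.82 to 2.32 CPM against 1.25 and 1.40 CPM, and Tk1 (thymidine kinase) was below both controls, at 0.310 to 0.452 CPM against 0.882 and 1.04 CPM. Neither passed the threshold with either virus.

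The A- and B-type cyclins and Cdk1, which form the kinase that starts mitosis, were low in every group. Cdk1 measured 0.250 and 0.208 CPM in controls, 0.218 and 0 CPM with Sox11, and 0.093 and 0.206 CPM with Sox11K91A. The count of 0 in replicate 2 of the Sox11 group allows a level of up to 0.0905 CPM (3 counts, counting error only), so no group stood out at this depth. Ccnb1 measured 0.680 and 0.130 CPM in controls, 0.073 and 0.211 CPM with Sox11, and 0.186 and 0.137 CPM with Sox11K91A, with control replicate 1 above the rest. Neither gene passed the filter on low counts. Ccna2 and Ccnb2 were at 1.01 to 2.29 CPM over all libraries and were not called. Exosc9, at a mean of 50.5 CPM, shares 12.5% of the exon bases of Ccna2 on the opposite strand.

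Among the 17 genes of mitotic chromosomes, spindle and checkpoint, Hmgb2 alone passed the threshold, in the comparison of Sox11 with control. Hmgb2, a chromatin protein that is abundant in dividing cells, measured 8.77 and 15.8 CPM in controls, 25.8 and 26.0 CPM with Sox11, and 23.0 and 21.9 CPM with Sox11K91A. The libraries with a Sox11 virus lay above both controls, which differed from each other more than the replicates of either virus did. On the log2 scale the change was 1.09 ± 0.26 (SE) with Sox11 (2.14-fold, adjusted p = 0.031, limma-voom) and 0.89 ± 0.26 with Sox11K91A (1.85-fold, adjusted p = 0.074), and the latter passed without the low-Xist libraries (0.011). A difference between the viruses was not called for this gene (log2 difference -0.21, 95% interval from -0.77 to 0.35).

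Mki67 measured 1.00 and 0.649 CPM in controls, 0.328 and 0.241 CPM with Sox11, and 0.248 and 0.343 CPM with Sox11K91A. Both controls were above all 4 libraries with a Sox11 virus. This was a log2 fold change of -1.44 ± 0.59 (SE) with Sox11 (adjusted p = 0.12, limma-voom) and -1.39 ± 0.58 with Sox11K91A (adjusted p = 0.16), and neither passed. Top2a, the topoisomerase that untangles chromosomes before mitosis, measured 0.895 and 0.856 CPM in controls, 0.946 and 0.633 CPM with Sox11, and 0.621 and 0.377 CPM with Sox11K91A. The Sox11 libraries lay on either side of the controls, and on the scale of TPM, which uses the effective length RSEM estimates in each library, the direction turned, with 0.35 and 0.70 TPM in controls, 1.04 and 1.27 TPM with Sox11 and 0.78 and 0.76 TPM with Sox11K91A.

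Other genes of the spindle and checkpoint were not called, and those lowest in adjusted p with Sox11 are given here. Plk1, a kinase of mitotic entry, was at 2.26 to 2.79 CPM in the libraries with a Sox11 virus against 1.11 and 1.12 CPM in controls (adjusted p = 0.061 with Sox11 and 0.080 with Sox11K91A, limma-voom). Bub1b, of the spindle checkpoint, was at 4.90 to 7.42 CPM against 2.72 and 3.53 CPM (adjusted p = 0.072 and 0.099). Tpx2, which targets Aurora A to the spindle, was at 2.98 to 4.77 CPM against 1.68 and 2.52 CPM (adjusted p = 0.071 and 0.23). DESeq2 called Plk1 and Bub1b with both viruses and Tpx2 with Sox11. Of the 17 genes, 10 were above both controls in both Sox11 libraries and 1 was below, beside 30.9% and 30.6% of all genes tested. With Sox11K91A the numbers were 8 and 3, beside 31.2% and 30.7%. Log2 fold changes below 0 were found for 4 of the 17 with Sox11 and 5 with Sox11K91A. Prc1, which bundles microtubules in the dividing spindle, and Hmgb2 had the highest mean TPM of the mitotic genes, Prc1 with 10.6 and 17.95 TPM in controls and 12.2 to 29.5 TPM in the other libraries, and its levels in CPM were highest in the 2 low-Xist libraries (24.4 and 34.1 CPM against 13.7 to 20.6 CPM). The summed CPM of the 17 genes rested mainly on Hmgb2 and Prc1. Rccd1, at a mean of 8.38 CPM, shares 11.1% of the exon bases of Prc1 on the opposite strand.

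Promoters of the cell cycle genes were searched for the motifs known from this gene class. RefSeq promoter windows (GRCm38.p6) running from 250 bases before to 50 bases after the annotated start were found for 42 of the 52 genes, in 48 windows. On both strands, E2F sites (TTTGGCGC, TTTCCCGC, TTTCGCGC or TTTGCCGC) were present in 10 of the 48 windows (20.8%) and in 2.26% of all 32851 windows of this length. The cell cycle homology region (CHR, TTTGAA) was present in 37.5% of the 48 and 17.9% of all windows, and the CCAAT box (CCAAT) in 72.9% and 37.4%. The motifs were not confined to genes that changed, nor did all called genes hold them. The window of Cdk4 held none of these motifs, and Rrm1, Cdkn2d and Ccnd3 held CCAAT boxes but no CHR or E2F site. No window was found for the called genes Rb1 and Cdkn1c. Given here in the gene's own 5′ to 3′ direction, with these motifs in capitals on either strand, are windows of a gene that rose with both viruses (Mcm7, chr5:138171834-138172133, minus strand), one that rose with Sox11 (Hmgb2, chr8:57511593-57511892, plus strand), one that fell (Cdt1, chr8:122567765-122568064, plus strand) and a pair of mitotic genes at or under 1.00 CPM in every library (Mki67, chr7:135716330-135716629, and Cdk1, chr10:69352863-69353162, both minus strand).
Mcm7: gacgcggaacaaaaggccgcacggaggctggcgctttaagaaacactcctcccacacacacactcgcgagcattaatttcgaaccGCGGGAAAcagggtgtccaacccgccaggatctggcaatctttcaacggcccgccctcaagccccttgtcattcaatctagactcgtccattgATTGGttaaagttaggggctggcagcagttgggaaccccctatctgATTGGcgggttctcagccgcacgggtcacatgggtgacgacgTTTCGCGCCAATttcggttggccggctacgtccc
Hmgb2: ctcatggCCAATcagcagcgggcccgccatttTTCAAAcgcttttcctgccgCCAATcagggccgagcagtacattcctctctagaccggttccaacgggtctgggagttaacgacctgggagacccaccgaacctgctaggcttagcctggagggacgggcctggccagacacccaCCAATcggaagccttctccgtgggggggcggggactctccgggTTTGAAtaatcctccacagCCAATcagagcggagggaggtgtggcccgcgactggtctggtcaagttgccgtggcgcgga
Cdt1: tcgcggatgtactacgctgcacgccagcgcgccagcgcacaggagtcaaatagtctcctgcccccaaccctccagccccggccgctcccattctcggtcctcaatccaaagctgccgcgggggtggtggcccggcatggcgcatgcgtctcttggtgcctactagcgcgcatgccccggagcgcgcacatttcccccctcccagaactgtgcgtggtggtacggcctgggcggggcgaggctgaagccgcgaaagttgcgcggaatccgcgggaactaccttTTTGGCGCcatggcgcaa
Mki67: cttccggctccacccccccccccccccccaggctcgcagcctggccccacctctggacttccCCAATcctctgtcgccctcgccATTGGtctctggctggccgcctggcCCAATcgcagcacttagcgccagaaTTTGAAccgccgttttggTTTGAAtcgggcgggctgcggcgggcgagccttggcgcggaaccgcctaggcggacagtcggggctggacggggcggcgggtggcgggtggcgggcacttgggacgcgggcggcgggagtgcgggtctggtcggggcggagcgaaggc
Cdk1: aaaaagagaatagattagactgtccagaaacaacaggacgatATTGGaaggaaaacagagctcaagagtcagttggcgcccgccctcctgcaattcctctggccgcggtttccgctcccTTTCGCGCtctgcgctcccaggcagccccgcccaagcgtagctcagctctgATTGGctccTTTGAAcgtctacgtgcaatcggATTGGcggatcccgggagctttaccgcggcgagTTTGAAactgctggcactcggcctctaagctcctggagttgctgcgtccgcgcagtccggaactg
This window of Mcm7 held 2 E2F sites and 3 CCAAT boxes, with the last E2F site running into a CCAAT box, while the window of another Mcm7 start (chr5:138171217-138171516) held 1 CCAAT box and no E2F site. Hmgb2 held 2 CHR elements and 4 CCAAT boxes. Cdt1 held 1 E2F site and none of the other motifs, while Mki67 held 2 CHR elements and 3 CCAAT boxes, and Cdk1 held 2 CHR elements, 3 CCAAT boxes and 1 E2F site. A match to these letters is a description of sequence and was not tested as a binding site.

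The direct comparison asked whether the virus that cannot be SUMOylated at this lysine had another effect on these genes. Sox11K91A against Sox11 gave 0 calls among the 49 genes and 0 among all genes tested, a share of 0% (limma-voom), with 0 of the 49 and 108 of all genes at an unadjusted p under 0.05. DESeq2 and edgeR's quasi-likelihood test also called 0 of the cell cycle genes, each with 1 at an unadjusted p under 0.05. The 108 genes of the limma-voom fit are fewer than a cut at 0.05 would pass with no differences at all, so 0 calls there say little. The study's volcano plot marks genes as more upregulated or more downregulated by Sox11K91A than by Sox11, and the source of this disagreement was not tested. The intervals leave room for differences, since the 95% interval of the log2 difference ran from -0.38 to 0.39 for Cdk4, from -0.54 to 0.20 for Rb1, from -0.23 to 0.70 for Cdkn2d and from -0.71 to 0.62 for Mcm7. The median log2 difference of the 49 genes was -0.15, beside 0.01 over all genes. Of all 52 genes, 5 were higher and 8 lower in both Sox11K91A libraries than in both Sox11 libraries, while 13.3% and 13.4% of all genes tested were.

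Beyond the list, 117 other cell cycle genes were compared, of which 109 were tested. With Sox11, 16 were called higher and 4 lower, which is 14.7% and 3.67% of those tested beside 9.96% and 10.2% of all genes. With Sox11K91A 9 were higher and 2 lower, which is 8.26% and 1.83% beside 5.81% and 4.81%. Their median log2 fold change was 0.30 with Sox11 and 0.24 with Sox11K91A. The largest rise among called genes with a mean of at least 1 CPM was that of Ckap2, a microtubule-associated protein of the mitotic spindle, from 3.94 and 5.09 CPM in controls to 19.5 and 26.5 CPM with Sox11 and 26.7 and 18.2 CPM with Sox11K91A. All 4 libraries with a Sox11 virus lay far above both controls for Ckap2 (log2 fold change 2.33 ± 0.34 and 2.28 ± 0.34 (SE), adjusted p = 0.013 and 0.019, limma-voom).

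Kif20b, a mitotic kinesin, rose from 0.823 and 0.571 CPM to 2.51 and 3.80 CPM with Sox11 (log2 fold change 2.20 ± 0.45 (SE), adjusted p = 0.022, limma-voom), and Gins1, a subunit of the replicative helicase, from 0.751 and 1.27 CPM to 3.38 and 5.88 CPM (2.15 ± 0.49, adjusted p = 0.028). These genes were higher in all Sox11 libraries than in controls and did not pass with Sox11K91A. With Sox11K91A the next largest rises after Ckap2 were those of Ccng1, a cyclin named for its sequence that is a target of p53, from 123 and 226 CPM to 613 and 431 CPM (1.63 ± 0.32, adjusted p = 0.030), and Kifc1, a minus-end kinesin, from 1.93 and 3.81 CPM to 10.1 and 7.37 CPM (1.62 ± 0.36, adjusted p = 0.040). Both also rose with Sox11, to 529 and 700 CPM and to 7.72 and 7.33 CPM.

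The largest falls among called genes of these lists with a mean of at least 1 CPM were those of Wee1, the kinase that holds Cdk1 inactive, Cdk5r2, a neuronal activator of Cdk5, and Dut, which removes dUTP. Wee1 fell from 7.09 and 6.88 CPM to 3.09 and 2.65 CPM with Sox11 and 1.77 and 2.74 CPM with Sox11K91A (log2 fold change -1.28 ± 0.29 and -1.66 ± 0.31 (SE), adjusted p = 0.028 and 0.026, limma-voom). Cdk5r2 fell from 401 and 324 CPM to 209 and 181 CPM with Sox11 and 205 and 232 CPM with Sox11K91A (adjusted p = 0.019 and 0.042). Dut fell from 24.9 and 30.3 CPM to 17.5 and 17.1 CPM with Sox11 (adjusted p = 0.036), and with Sox11K91A, at 18.2 and 19.3 CPM, it did not pass. By role, 5 of 43 tested genes of G2/M and mitosis and 5 of 35 of G1/S and replication were called with Sox11 (11.6% and 14.3%), and 10 of 31 regulators (32.3%), beside 20.1% of all genes, and the difference between roles was not tested (see the plot of gene lists). The counts also changed when a single library was left out, which leaves 1 library in a group and less information on the spread. Leaving out control replicate 2, Sox11K91A replicate 1 or Sox11K91A replicate 2 gave 9, 8 and 7 calls with Sox11 in place of 20.

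**Figure D4:**
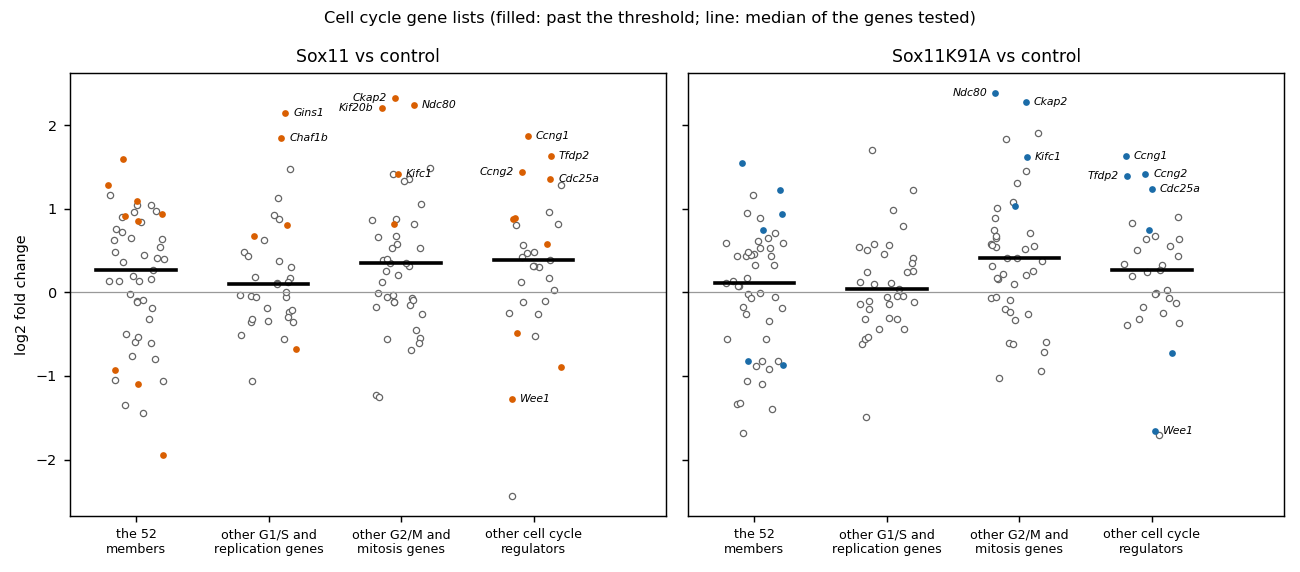
Log2 fold change of the 52 genes and of 3 lists of other cell cycle genes with Sox11 (left) and Sox11K91A (right), where each point is a gene tested, filled points passed the threshold and lines mark medians. Names are given for called genes of the other lists with a large change, and Ckap2 and Ndc80 stand highest with both viruses.

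Markers of other cells that such cultures could hold were read beside these genes (see the plot of summed levels). RGC markers summed to between 8520 and 16800 CPM, with all 14 detected in every library, and the sum was lower in all 4 libraries with a Sox11 virus (16600 and 16800 CPM in controls, 11500 and 8520 CPM with Sox11, 9880 and 12100 CPM with Sox11K91A). Called lower with Sox11 were 5 of the 14, which were Thy1, Nefm, Nefl, Slc17a6 and Rbpms2, and with Sox11K91A Nefm and Slc17a6, while 10.2% and 4.81% of all genes were called lower. None of the 14 was called higher, and 4 had a log2 fold change above 0 in each comparison (Isl1, Stmn2, Ebf1 and Ebf3), with a median over the 14 of -0.23 with Sox11 and -0.20 with Sox11K91A. The 12 markers of retinal progenitors summed to 62.9 to 92.2 CPM, most of it Six6 (33.9 to 43.5 CPM), which RGCs also express, and Nes. Rax and Fgf15, genes that mark progenitors, lay at or under 0.644 and 0.473 CPM, and Nes fell with both viruses (log2 fold change -1.44 and -1.27, adjusted p = 0.020 and 0.035, limma-voom). Of the 12 progenitor markers, 6 had a log2 fold change above 0 with Sox11 and 5 with Sox11K91A. Their medians were -0.11 and -0.20, and no progenitor marker was called higher.

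Endothelial markers summed to 8.14 to 16.3 CPM, with Cdh5 at or under 0.0519 CPM and with Egfl7 lower with both viruses and Pecam1 and Tek higher with Sox11K91A. Pericyte and fibroblast markers summed to 21.4 and 22 CPM in controls, 14.8 and 36.7 CPM with Sox11, and 29.4 and 18.9 CPM with Sox11K91A, with 0 of 9 called in either comparison and groups that overlapped. Microglial and macrophage markers summed to 0.452 to 2.11 CPM, with Tyrobp at 0 in all libraries, and neither of the 2 that were tested was called. Markers of Müller glia and astrocytes summed to 135 and 172 CPM in controls and 308 to 350 CPM with either virus. Most of the sum was Glul (97.2 and 105 CPM against 267 to 310 CPM), while Gfap was at 0 throughout and Aldoc fell. Of the 9 glial markers tested, 4 had a log2 fold change above 0 and 5 below in each comparison. Their medians were -1.66 with Sox11 and -0.90 with Sox11K91A. With Sox11, 1 was called higher and 2 lower, and with Sox11K91A 1 higher and 1 lower, beside 20.1% and 10.6% of all genes called.

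Oligodendrocyte precursor markers summed to at most 1.24 CPM, with Olig2 at 0, though Pdgfra was called higher with Sox11 (0.0778 and 0.179 CPM in controls, 0.874 and 0.875 CPM with Sox11). Amacrine markers summed to 233 and 95.9 CPM in controls, 113 and 37.9 CPM with Sox11, and 96.9 and 104 CPM with Sox11K91A. The sum was lowest in the 2 low-Xist libraries, though barely so for the control one. Slc6a9 was called lower with both viruses and no amacrine marker was called higher. Of the 7 markers, 4 had a log2 fold change above 0 with Sox11 and 5 with Sox11K91A (medians of 0.22 and 1.25). Photoreceptor and bipolar markers summed to at most 1.95 CPM, with Rcvrn and Vsx1 at 0. A listing at 0 allows up to 0.0779 to 0.109 CPM, depending on the library. What lowered the sum of RGC markers was not tested. CPM is scaled to library size and gives neither the number of RGCs nor the RNA per RGC. The part of any other cell type in the levels of the cell cycle genes was not tested either.

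**Figure D5:**
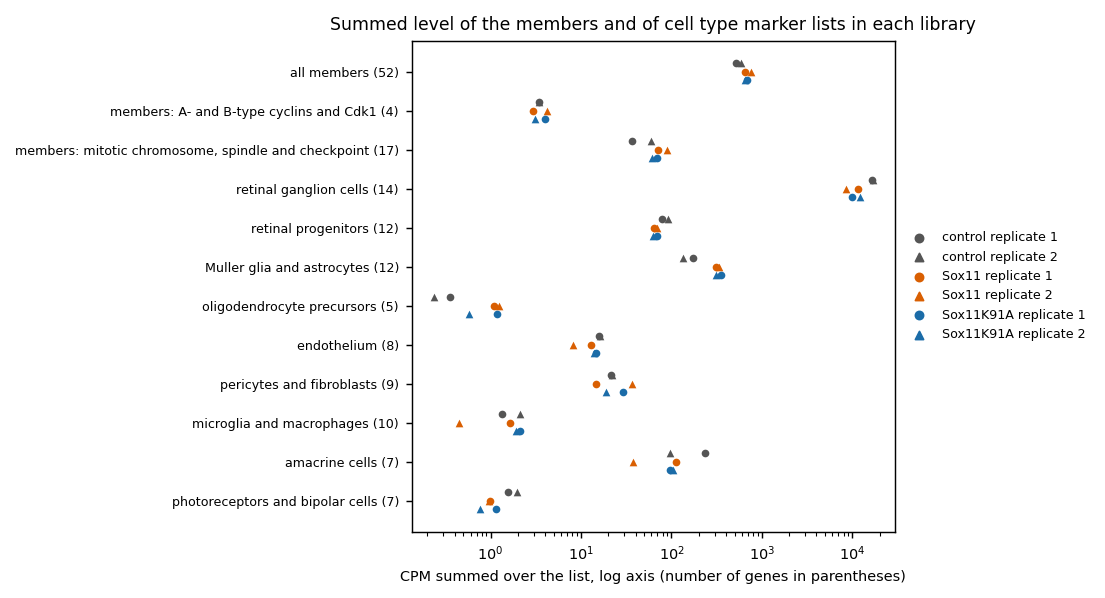
CPM summed over all 52 genes, over 2 groups of them and over 9 lists of cell type markers in each library, on a log axis, with the number of genes in parentheses. RGC markers sum to at least 8520 CPM in every library, while A- and B-type cyclins with Cdk1 sum to 2.91 to 4.16 CPM and show no separation between the groups.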

How the data were processed

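The 6 RNA-seq libraries were 2 each of RGCs with control, Sox11 or Sox11K91A AAV, described in the study's methods as 3 RNA samples in duplicate. The authors aligned reads to mm10 with STAR and counted them with RSEM, whose versions, annotation and use of strand are not given in the sources used here. They deposited RSEM expected counts, TPM values and posterior standard deviations of the counts for each library, without pooling.

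Expected counts (27521981 to 37061718 per library) were rounded, filtered with filterByExpr of edgeR (version 4.0.16), scaled by TMM and tested by limma-voom (limma 3.58.1, R 4.3.3) fitted on the 6 libraries together. P-values were two-sided and Benjamini-Hochberg adjusted over the 15747 genes tested, and calls needed an FDR under 0.05 and a fold change above 1.2. CPM used TMM-scaled library sizes, and ± gives SE. The deposited posterior standard deviations were at most 1.03% of the count for the called genes. Symbols and positions came from GENCODE M21, and H2az1, of the comparison lists, was not matched. The test was tested on simulated counts that held no difference like that of the low-Xist libraries, so it does not cover such a difference.

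The 52 genes and all lists were chosen with earlier results of these data known. Described in full were called genes and 12 genes fixed by name (Mki67, Top2a, Cdk1, Ccnb1, Pcna, Mcm2, Ccnd1, Ccnd2, Cdk4, Cdkn1b, Cdkn1c and Cdkn2c), and of other cell cycle genes the 3 largest rises and falls called at a mean of at least 1 CPM. Other genes of the 52 are given by counts and ranges, and those set out further were chosen after their values were seen. The 22 alternatives included DESeq2 (version 1.42.0), edgeR's quasi-likelihood test, quality weights, TPM with limma-trend, other scalings and filters, blocks, and leaving out libraries.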

Additional observations from a re-analysis of the deposited data

How the results depend on the processing

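Direction against control held for all 9 called cell cycle genes under all 22 alternatives, while the number called moved, and the cause was not tested. Against 9 cell cycle genes called with Sox11, DESeq2 called 14, sample quality weights 3 and a fold change above 2 called 5. Against 6 with Sox11K91A, DESeq2 called 12, quality weights 3, limma-trend on log2(TPM + 1) or log2(TPM + 0.1) 0 and 0, a block for the low-Xist libraries 10, leaving both out 11, and a fold change above 2 called 2. Leaving out 1 library gave 0 to 8 with Sox11 and 0 to 5 with Sox11K91A. The median log2 fold change with Sox11K91A was 0.28 with the low-Xist block and 0.36 without those libraries, and 0.0238 to 0.347 with 1 library left out.

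In the labels, replicates of different groups shared only a number. Same-numbered libraries deviated together for control and Sox11 (correlation 0.296), whose replicates 2 were the low-Xist libraries. They did not for control and Sox11K91A (-0.0538) or Sox11 and Sox11K91A (-0.421). With the replicate block, 9 and 4 cell cycle genes were called with Sox11 and Sox11K91A, and other cell cycle genes called with Sox11K91A went from 11 to 7.

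All genes called with Sox11 (3171) came to 979 with quality weights, 2107 on log2(TPM + 0.1), 1598 with only the 2 groups compared, 2094 without the low-Xist libraries, 1853 at a fold change above 2, and 0 to 3753 with 1 library left out. With Sox11K91A (1672) they came to 3012 with DESeq2, 936 and 896 on log2(TPM + 1) and log2(TPM + 0.1), 2894 with the low-Xist block, 4108 without those libraries, 1068 at a fold change above 2, and 0 to 2563 with 1 library left out. DESeq2 called 2 genes between the viruses. Other cell cycle genes called with Sox11 (20) came to 6 with quality weights, 8 with only the 2 groups compared, 9 without the low-Xist libraries, 11 at a fold change above 2, and 0 to 19 with 1 library left out. With Sox11K91A (11) they came to 18 with DESeq2, 6 on log2(TPM + 1), 20 with the low-Xist block, 19 without those libraries, and 0 to 12 with 1 library left out.

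None of the log2 fold changes that turned sign was of a call against control. Top2a with Sox11 was 0.506 and 1.06 on log2(TPM + 1) and log2(TPM + 0.1), 0.0845 without the low-Xist libraries and -0.469 to 0.126 with 1 library left out, and with Sox11K91A 0.224 and 0.536 on the TPM scales. Ccnd1 with Sox11 was 0.00504 on log2(TPM + 1), and with 1 library left out it was -0.704 to 0.42 with Sox11, -0.176 to 0.387 with Sox11K91A and -0.347 to 0.785 between the viruses. Without the low-Xist libraries, Ccnd2 was -0.31, Cdkn1b -0.102 and Cdkn2c 0.281 with Sox11, and Ccnd2 -0.189 and Cdkn1b 0.0313 with Sox11K91A. With 1 library left out, Cdkn1b was -0.143 to 0.407 and Cdkn2c -1.19 to 0.0432 with Sox11, and Ccnd2 -0.191 to 0.766 and Cdkn1b -0.0553 to 0.0289 with Sox11K91A. Under the low-Xist block, Cdkn1b was 0.153 with Sox11K91A.

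Between the viruses, the low-Xist block gave 0.00897 for Cdkn1b, 0.162 for Cdkn1c, 0.287 for Mcm7, -0.235 for Mki67 and 0.0616 for Pcna, and leaving those libraries out gave 0.12 for Ccnd2, 0.133 for Cdkn1b, 0.272 for Cdkn1c, 0.357 for Mcm7 and -0.174 for Mki67. The TPM scales gave -0.0201 and -0.0221 for Ccnd3 and -0.155 and -0.156 for Cdk4, library size alone -0.000517 for Cdk4, and edgeR's quasi-likelihood test and DESeq2 0.0341 and 0.0335 for Mcm2. With 1 library left out, the values were -0.0909 to 0.111 for Cdk4, -0.367 to 0.363 for Mcm2, -0.0318 to 0.00728 for Pcna, -0.672 to 0.118 for Ccnd2, -0.425 to 0.133 for Cdkn1b, -0.364 to 0.269 for Cdkn1c, -0.399 to 0.356 for Mcm7, -0.173 to 0.289 for Mki67 and -0.101 to 0.338 for Ccnd3.

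Mki67 had 8 to 28 counts per library, and the 95% interval of its log2 fold change with Sox11 ran from -2.84 to -0.05.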
